A study of Arabidopsis thaliana with 39 samples.

Results

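The comparison described here is the genotype effect under heat, *morchex* against wild type (WT), in RNA of Arabidopsis thaliana taken at T30, that is after 0.5 h at 37 °C. Libraries were chosen by their labels, and 5 of the 39 samples of the series belong to it, 2 of *morchex* and 3 of WT. *morchex* carries T-DNA alleles of the 6 active MORC genes, morc1-2, morc2-1, morc4-1, morc5-1, morc6-3 and morc7-1, in the Col-0 background, and WT is Col-0 with none of these alleles. Both genotypes also have libraries at T0, before heat (3 each), and at T48, after 48 h of recovery at normal temperature (2 of *morchex*, 3 of WT), which were used to see whether a difference at T30 was also present without heat. The samples are labelled floral tissue of plants aged 5 to 6 weeks, and the methods name flower buds. No source says whether the numbered replicates came from separate plants or pools. The p-values therefore measure the spread between libraries within groups, which may be technical. It was estimated from all 16 libraries at T0, T30 and T48, in 6 groups.

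MORC proteins are ATPases that compact chromatin, and in plants they act with RNA-directed DNA methylation (RdDM) to keep transposons and methylated genes silent. Heat shock acts through heat shock factors, which bind repeated GAA and TTC elements in promoters and switch on chaperone genes within minutes. The comparison asks which genes depend on the MORC genes once this response is under way.

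The 5 libraries held 19597284 and 24868517 expected counts in *morchex*, against 15342615, 10836060 and 10906140 in WT, so the *morchex* libraries were the deeper ones. Log2 CPM values correlated at 0.983 between the 2 *morchex* libraries and at 0.978, 0.972 and 0.97 between the WT libraries. Across the genotypes they correlated at 0.961 to 0.973, so some of these pairs were as alike as WT replicates. Some markers of flowers were at or near 0 and others were expressed. Of 13 floral MADS genes, 3 had no counts in any of the 5 libraries and 8 stayed under 1 TPM. They summed to 32.3 and 29.0 TPM in *morchex*, against 21.7, 16.6 and 24.2 TPM in WT. Of 5 carpel and ovule markers, 3 had no counts in any library. That list summed to 12.3 and 9.06 TPM in *morchex*, against 9.85, 8.22 and 6.83 TPM in WT. AP1, CAL and STK had no counts in any of the 5 libraries, AP3 reached at most 0.15 TPM (a length-scaled level with a fixed sum per library) and PI at most 0.60 TPM. Of 16 anther tapetum markers, 11 had no counts in any library and 14 stayed under 1 TPM, and of 12 pollen markers 10 stayed under 1 TPM. Their summed levels were 16.3 and 12.6 TPM in *morchex*, against 22.1, 15.9 and 15.4 TPM in WT, for the tapetum list, and 2.84 and 1.29 TPM in *morchex*, against 3.89, 2.36 and 1.40 TPM in WT, for the pollen list. The 6 markers of green tissue, small subunits of Rubisco and light-harvesting proteins, together held 78029 and 83251 TPM in *morchex*, against 80495, 71960.5 and 67281 TPM in WT. The tissue is therefore called the sampled tissue below. In such bulk RNA, fewer cells of a type and less RNA per cell cannot be told apart.

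The transcripts of the mutated genes were lower for MORC1, MORC2 and MORC7. MORC1 had 1.51 and 1.73 TPM in *morchex*, against 5.55, 7.55 and 8.09 TPM in WT, which is -2.23 as a log2 fold change (SE, standard error, 0.23) with an adjusted p of 7.9e-05. This and all other adjusted values come from edgeR's quasi-likelihood fit unless DESeq2 is named. MORC7 had 0.56 and 0.38 TPM in *morchex*, against 2.17, 2.62 and 2.25 TPM in WT (-2.45, adjusted p = 0.0042). MORC2 had 0.53 and 0.26 TPM in *morchex*, against 1.79, 1.03 and 1.5 TPM in WT (-2.01, adjusted p = 0.014). The *morchex* and WT libraries did not overlap for any of these 3 genes. Of the 5 tested MORC genes, DESeq2 called MORC1 alone. MORC2 kept its call in 7 of 12 other settings, and lost it without replicate 1 (-2.48) or replicate 2 (-1.63) of *morchex*. MORC6, with 1.17 and 1.03 TPM in *morchex* and 1.82, 1.62 and 1.73 TPM in WT, did not pass (-0.78, adjusted p = 0.10).

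MORC4 behaved differently from the other members. At T30 it had 7.13 and 7.84 TPM in *morchex*, against 8.01, 9.44 and 9.15 TPM in WT (log2 fold change -0.36, adjusted p = 0.14). At T0 it had 9.84, 11.5 and 12.1 TPM in *morchex*, against 2.68, 3.24 and 2.96 TPM in WT (1.90, adjusted p = 7.5e-07), and at T48 it was again higher in *morchex* (1.99, adjusted p = 5.9e-07). The genotypes were thus apart before heat and after recovery, and close to each other at T30. MORC5 was close to absent, with 4 and 3 counts in the *morchex* libraries and no counts in the WT libraries. Whether the remaining transcripts are complete cannot be read from counts per gene.

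A gene was called where the adjusted p was under 0.05 and the fold change over 2. Of 18827 genes tested, 88 were called higher in *morchex* at T30 (0.467%) and 23 lower (0.122%). With DESeq2 70 genes were called higher and 38 lower. At an unadjusted p under 0.05, 9.90% of all genes were higher and 10.9% lower. The *morchex* libraries lay above all WT libraries for 17.5% of all genes and below them for 15.4%, and every one of the 88 and 23 called genes was among these. Before heat, 46 genes were called higher (0.244%) and 9 lower (0.0478%), and at T48 the numbers were 545 (2.89%) and 624 (3.31%). The counts at T30 leaned on single libraries. Without replicate 1 of *morchex*, 36 genes were called higher and 5 lower, and without replicate 2 of WT, 58 were higher and 10 lower. Without replicate 1 of WT 126 genes were lower, and without replicate 2 of *morchex* 109 were.

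The genes called higher were split by whether they were also called before heat. Of the 88, 45 were also called higher at T0 (51.1%) and 52 at T48 (59.1%), and 44 were called at all 3 times. T0 and T48 shared no library with T30, but all 3 times shared the same fit, its count filter and its estimate of the spread. The 45 had a median log2 fold change of 5.72 at T30, 5.78 at T0 and 4.90 at T48. The other 43 had a median of 1.70 at T30, 0.42 at T0 and 0.43 at T48. Of the 23 lower genes, 4 were also called lower at T0 and 10 at T48. The 4 were AT3G28220 and the mutated genes MORC1, MORC2 and MORC7.

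Whether an effect at T30 differed from that at T0 was tested as an interaction of genotype and heat in the same fit. No gene was called higher (0.0%) and 1 was called lower (0.00531%), MORC4, with a log2 difference of -2.26 (adjusted p = 9.1e-05). With DESeq2 the numbers were 3 and 4, and with edgeR 251 and 135 genes passed an unadjusted p under 0.05 with a fold change over 2. An unadjusted p under 0.05 in either direction was reached by 9.18% of all genes. It was reached by 34 of the 88 higher and 10 of the 23 lower genes, which were chosen on the same T30 libraries, so nothing is read from these counts. The smallest adjusted p among the 88 was 0.194, so none of them was called in this test.

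**Figure D1:**
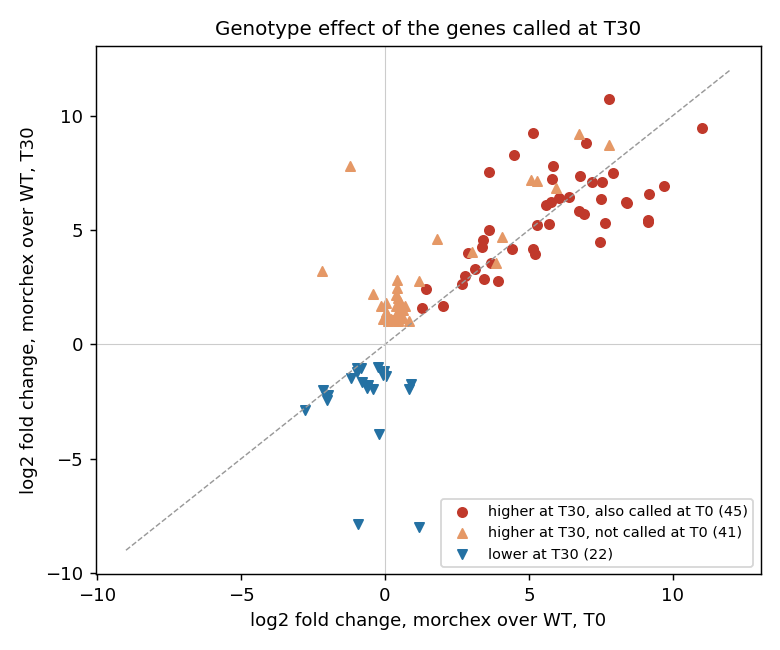
Log2 fold change of *morchex* over WT at T30 (vertical axis) against that at T0 (horizontal axis). Shown are the called genes placed on a nuclear chromosome (86 of 88 higher, 22 of 23 lower), with the line of equal effect dashed. Values of genes with no counts in a group depend on the fit and are no bounds. Genes called higher at both times (circles) lie on both sides of the line, 22 of 45 within 1 log2 unit of it and the others up to 4.11 away. Most genes called higher at T30 and not at T0 (triangles) sit near 0 at T0.

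The genes called at both times were mostly silent in WT. Among the protein-coding ones SDC (AT2G17690, chromosome 2, 7682162 to 7684083), ABCG38 and AT5G35480 were tied for the smallest adjusted p. SDC is an F-box gene with tandem repeats in its promoter and a well known target of RdDM. The 300 bases upstream of its annotated start are shown because this stretch carries the repeats (TAIR10.1, chr2:7681862-7682161, plus strand, from the RefSeq genome). Capitals mark AGATNANATTT, a motif read from this promoter itself, which occurs 7 times at a spacing of 31 to 32 bases.
SDC: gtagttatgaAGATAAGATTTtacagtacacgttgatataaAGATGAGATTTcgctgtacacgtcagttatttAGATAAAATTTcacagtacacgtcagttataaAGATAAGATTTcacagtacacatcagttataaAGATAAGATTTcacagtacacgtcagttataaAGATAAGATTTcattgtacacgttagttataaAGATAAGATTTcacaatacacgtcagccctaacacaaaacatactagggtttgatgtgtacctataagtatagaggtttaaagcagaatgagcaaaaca
On both strands, 445 of 26711 promoters of this length of protein-coding genes (1.67%) held at least 1 such match, and the highest number in a promoter other than that of SDC was 2.

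SDC had 18.8 and 19.6 TPM in *morchex*, against 0.11, 0.38 and 0.15 TPM in WT, which is 6.43 on the log2 scale (SE 0.32, adjusted p = 1.5e-08). Before heat it had 21.1, 32.7 and 26.8 TPM in *morchex*, against 0.35, 0.28 and 0.29 TPM in WT. The interaction was 0.05 on the log2 scale (unadjusted p = 0.93). Of the other methylation-silenced genes listed, FWA had a single count in 1 *morchex* library and none in WT. QQS, an orphan gene of starch metabolism with known epigenetic variation, had 66.6 and 27.9 TPM in *morchex*, against 12.5, 11.1 and 17.3 TPM in WT, and did not pass in edgeR (1.63, adjusted p = 0.071). It was called by DESeq2 (1.62, adjusted p = 0.011), and by edgeR without replicate 2 of *morchex* (2.11).

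The smallest adjusted p belonged to AT4G04293 (chromosome 4, 2076832 to 2077361), which RefSeq classes as a pseudogene. It had 353 and 209 TPM in *morchex*, against 3.24, 3.50 and 4.53 TPM in WT (6.08, SE 0.23, adjusted p = 1.1e-09). ABCG38 (AT3G30842), a transporter of the ABC family, had 7.40 and 5.38 TPM in *morchex*, against 0.02, 0.0 and 0.0 TPM in WT. That is 1 count in WT, and the ratio of the counts scaled by library was 859 (95% counting interval 154 to 33964). ABCG38 was thus near silence in each WT library, whereas AT4G04293 had a low but measurable WT level.

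AT5G35480 and MRU1 (AT5G35490), a maternally expressed imprinted gene, lie side by side within 2.70 kb of chromosome 5. AT5G35480 had 235 and 211 TPM in *morchex*, against 8.56, 14.9 and 13.7 TPM in WT (4.01, adjusted p = 1.5e-08). MRU1 had 58.9 and 43.5 TPM in *morchex*, against 6.39, 6.51 and 9.80 TPM in WT (2.63, adjusted p = 1.3e-06). Unlike SDC and ABCG38, this pair was expressed in WT too, and before heat AT5G35480 stood at 47.1 to 53.4 TPM in WT and 358 to 424 TPM in *morchex* (2.87). The interaction for AT5G35480 had an unadjusted p of 6.0e-04 and was not called.

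MRD1 (AT1G53480) had 10.7 and 12.6 TPM in *morchex*, against 0.48, 0.14 and 0.09 TPM in WT (5.28, adjusted p = 9.3e-07). AT3G29639, which encodes an uncharacterized protein, had 101 and 63.8 TPM in *morchex*, against 1.32, 0.46 and 2.09 TPM in WT (5.82, adjusted p = 2.7e-07). PUM9, an RNA-binding protein of the Pumilio family, had 4.97 and 4.21 TPM in *morchex*, against 0.09, 0.0 and 0.06 TPM in WT, a ratio of 78.1 (26.5 to 381). Each of the 3 was also called at T0 and T48.

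Pseudogenes made up most of the rest. AT1G36680 had 24.7 and 13.2 TPM in *morchex*, against 0.48, 0.0 and 0.10 TPM in WT (6.22, adjusted p = 1.0e-06), and AT3G42716 had 8.13 and 5.36 TPM in *morchex* and no counts in WT, at least 130.4-fold higher against a floor of 3 counts over the WT libraries. AT1G25430 showed a smaller difference on a measurable WT level, with 9.72 and 8.16 TPM in *morchex*, against 1.54, 1.48 and 1.54 TPM in WT (2.43, adjusted p = 1.7e-06). The pseudogenes AT4G01980, AT2G15800, AT3G42719 and AT5G34800 completed the 14 smallest adjusted p-values, with 5.05 to 21.6 TPM in *morchex* and 0.0 to 0.65 TPM in WT. Of the 88 genes, 15 had no counts in the WT libraries at T30, with lower bounds of 5.75-fold to 130.4-fold, and a further 19 had 1 to 3 counts there.

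**Figure D2:**
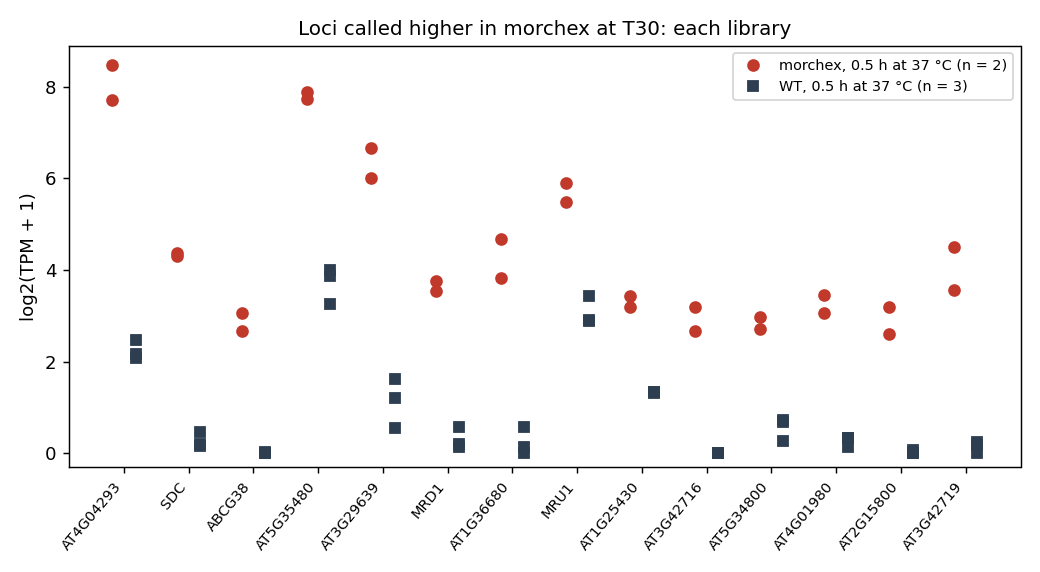
Level of the 14 genes called higher in *morchex* at T30 with the smallest adjusted p, as log2(TPM + 1) (vertical axis), in each *morchex* library (circles, n = 2) and each WT library (squares, n = 3). The 14 genes were chosen among those whose libraries do not overlap, so no WT library reaches the *morchex* libraries at any of them. ABCG38, AT3G42716 and AT2G15800 sit at or near 0 in WT.

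Class and position were read from the reference annotation. By the RefSeq annotation 36 of the 88 were pseudogenes (40.9%), against 173 of the 18827 genes tested (0.919%). RefSeq keeps transcribed pseudogenes as a separate class, which held a further 2 of the 88, AT5G28230 and AT5G34795, both also called at T0, and 107 of all genes tested. Among the 45 also called at T0 the number was 29 (64.4%), among the other 43 it was 7 (16.3%), and among the 23 lower genes it was 1 (4.35%). Gene-poor centres of the chromosomes, taken as the 1 Mb window with the fewest protein-coding genes, were used to mark the regions around the centromeres. Within 2.5 Mb of a centre lay 48 of 86 placed genes called higher (55.8%, exact 95% interval 44.7 to 66.5%), against 5.85% of all genes tested. It was 36 of the 45 also called at T0 (80.0%), 12 of 41 others (29.3%) and 2 of 22 lower genes (9.09%). A locus silent in WT passed the filter on counts only through its *morchex* counts. Loci silent in both genotypes are therefore missing from the shares over all genes tested. Neighbouring genes share chromatin and, where models overlap, reads, so these shares are descriptions and were not tested.

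Some of the called genes were neighbours. Of the 86 placed genes called higher, 28 lay within 20 kb of another one, in 11 clusters. No such share was taken over all genes tested, so the count is a description. The genes tested in a span leave out those that did not pass the filter on counts. The largest cluster held AT5G34790, AT5G34795, AT5G34800, AT5G34810 and AT5G34825 in 15.4 kb of chromosome 5, all 5 genes tested there, with log2 fold changes of 2.97 to 4.06. ABCG38 stood with the pseudogenes AT3G30844, AT3G30843 and AT3G30846 in 25.2 kb of chromosome 3, again all 4 genes tested there, and PUM9 with the pseudogene AT1G35735 in 8.39 kb of chromosome 1. Among the lower genes the neighbours were MORC2 with MORC1, and AT5G46710 with AT5G46720. The libraries were made with a kit that keeps strand, but the counting is described with default settings, so reads of overlapping or antisense genes, and of near-identical copies, could not be told apart.

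**Figure D3:**
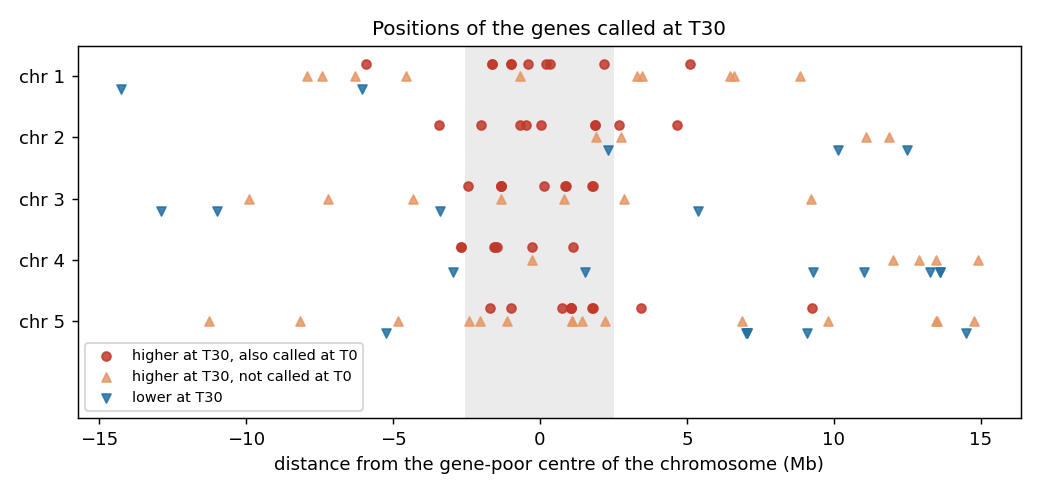
Distance of each placed called gene from the gene-poor centre of its chromosome in Mb (horizontal axis), by chromosome (rows), with the 2.5 Mb on each side shaded. Genes called higher at T30 and T0 (circles) lie mostly in the shaded band (36 of 45), and genes called lower (downward triangles) mostly outside it (2 of 22 inside).

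Of the 43 genes called higher at T30 and not at T0, 34 were protein coding. The 7 pseudogenes among the 43, AT3G30846, AT4G06517, AT5G27845, AT5G28715, AT5G34810, AT5G34825 and AT5G35057, had fitted log2 fold changes of 3.01 to 7.78 at T0 without being called there, and 3 of them lay in the clusters of AT5G34790 and ABCG38. The genes named in this paragraph and the next were chosen as examples after their values were seen. AT5G63410, a receptor kinase with leucine-rich repeats, had the smallest adjusted p of the set. It had 5.79 and 5.33 TPM in *morchex*, against 2.81, 1.86 and 1.89 TPM in WT (1.20, SE 0.15, adjusted p = 7.3e-04), and its log2 fold change at T0 was 0.01. FLS2, the receptor for bacterial flagellin, had 0.81 and 0.66 TPM in *morchex*, against 0.22, 0.11 and 0.0 TPM in WT (2.45, adjusted p = 0.024). WAK2, a wall-associated kinase, had 11.2 and 7.11 TPM in *morchex*, against 3.08, 2.69 and 3.70 TPM in WT (1.40, adjusted p = 0.031). At T0 the genotypes overlapped for AT5G63410, with 5.78 to 7.02 TPM in *morchex*, against 5.98 to 6.60 TPM in WT, and FLS2 had 3.29 to 4.25 TPM in *morchex*, against 2.47 to 3.08 TPM in WT.

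Several metabolic and stress genes belonged to the same set. COR413IM1, a cold-induced protein of the chloroplast inner membrane, had 114 and 118 TPM in *morchex*, against 27.5, 31.4 and 38.8 TPM in WT (1.70, adjusted p = 0.011). NIA2, a nitrate reductase, had 30.7 and 32.0 TPM in *morchex*, against 16.9, 10.4 and 11.1 TPM in WT (1.17, adjusted p = 0.013). GLT1, a glutamate synthase, differed by 1.06, SUS1, a sucrose synthase, by 1.04, ERD7, a dehydration-induced gene, by 1.07 and TPPH, a trehalose-phosphate phosphatase, by 1.06. CYP94B1, which oxidizes jasmonate conjugates, had 2.98 and 2.32 TPM in *morchex*, against 0.09, 0.06 and 0.68 TPM in WT (3.20, adjusted p = 0.028). ARO3 had no counts in WT at T30 and was at least 17.2-fold higher in *morchex*, although at T0 it had 0.49 to 1.06 TPM in *morchex*, against 1.07 to 2.64 TPM in WT.

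This set depended more on single libraries. With each library left out in turn, 29 to 44 of the 45 genes called at both times were called again, against 3 to 31 of the 43 others, where the 3 came without replicate 1 of *morchex*. With the T30 libraries fitted alone, 24 of the 45 and 5 of the 43 were called. Of the 88, 22 were called in every setting other than DESeq2, all 22 among those also called at T0, and DESeq2 gave no adjusted p for 54 of the 88 because of its own filter on low counts.

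IAA29 was the only member of the list of PIF and thermomorphogenesis genes that was called. It is an auxin-response gene and a target of PIF transcription factors, which carry light and warmth signals to growth. It had 3.24 and 4.02 TPM in *morchex*, against 0.40, 0.79 and 0.23 TPM in WT (2.83, SE 0.48, adjusted p = 0.011), and was called in 11 of 12 other settings. Before heat it had 15.5 to 25.6 TPM in *morchex*, against 13.0 to 20.4 TPM in WT (0.41), and at T48 it was called lower (-1.44). PIF5 passed the adjusted p but not the fold change, with 33.9 and 27.2 TPM in *morchex*, against 21.6, 20.5 and 13.9 TPM in WT (0.63, adjusted p = 0.048). Over the 11 tested members the median was 0.11, beside 0.01 over all genes tested.

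Among the 23 genes called lower, apart from the MORC genes, AT5G19730, an enzyme of the pectinesterase family, had the smallest adjusted p. It had 4.74 and 5.50 TPM in *morchex*, against 12.3, 11.6 and 11.5 TPM in WT (-1.33, SE 0.17, adjusted p = 0.0012). At T0 its levels were 7.86 to 8.71 TPM in *morchex*, against 7.82 to 9.02 TPM in WT, and at T48 it was again called lower (-1.31). It remained called in all 12 other settings.

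AT1G24996 had 9.85 and 10.8 TPM in *morchex*, against 32.6, 36.0 and 38.8 TPM in WT (-1.96, adjusted p = 0.0042), and AT5G46620 had 7.39 and 5.00 TPM in *morchex*, against 11.4, 11 and 12.3 TPM in WT (-1.05, adjusted p = 0.0042). At T0 the log2 fold change was -0.41 for AT1G24996 and -0.98 for AT5G46620, and neither was called there. The call of AT1G24996 was lost without replicate 1 of *morchex* (-1.87) and that of AT5G46620 without replicate 2 of *morchex* (-0.82). AT3G52040 fell by 1.01 on the log2 scale, UMAMIT31, of a family of amino acid transporters, by 1.78, ABS2, a B3-type transcription factor, by 1.91, and the PLATZ factor AT5G46710 by 1.05. By the choice of named genes, both *morchex* libraries lay below the WT libraries for each of them. Their log2 fold changes at T0 were -0.23, -0.59, -0.63 and -0.83 in this order, and none was called there. Without replicate 2 of WT or replicate 1 of *morchex* these 4 lost their calls (-0.91 and -0.93 for AT3G52040, -1.56 and -2.01 for UMAMIT31, -2.02 and -1.77 for ABS2, -0.82 and -0.86 for AT5G46710). ABS2 and UMAMIT31 also lost theirs without replicate 2 of *morchex* (-2.08 and -1.57), and ABS2 without replicate 3 of WT (-1.70). AT1G02700 had 1.69 and 2.57 TPM in *morchex*, against 3.74, 7.64 and 8.28 TPM in WT (-1.73, adjusted p = 0.031), while at T0 its log2 fold change was 0.89, and it lost its call without replicate 2 (-1.56) or 3 (-1.54) of WT or replicate 1 of *morchex* (-1.43). The pseudogene AT4G08115 had 0.08 and 0.07 TPM in *morchex*, against 0.71, 0.63 and 0.28 TPM in WT (-2.89, adjusted p = 0.030). It lost its call without replicate 2 of WT (-2.76) or either *morchex* library (-2.85 and -2.93). At T0 its log2 fold change was close to that at T30 (-2.78), without a call. Of the 23 lower genes, 2 were called in all 12 other settings, and 4 to 19 with 1 library left out, where the 4 came without replicate 1 of *morchex*.

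A pair of short genes had no counts in *morchex* at T30. AT4G35430 (433 bases) had 31, 8 and 17 counts in WT, so it was at least 23.8-fold lower in *morchex* against a floor of 3 counts over the *morchex* libraries. It was also at 0 in both *morchex* libraries at T48, yet had 1.19 to 3.96 TPM in *morchex* and 2.74 to 5.53 TPM in WT at T0. AT5G66053, whose model has 147 bases, had 16, 29 and 13 counts in WT and was at least 24.7-fold lower in *morchex*. Both lost their calls without replicate 1 of *morchex*, with the remaining *morchex* library still at 0.

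Heat shock genes were strongly expressed in both genotypes at T30, and 1 of their number was called. APX2 (AT3G09640, chromosome 3, 2956156 to 2958330), an ascorbate peroxidase and a direct target of heat shock factors, had 38.7 and 93.8 TPM in *morchex*, against 98.9, 339.7 and 265 TPM in WT, which is -1.95 on the log2 scale (SE 0.44, adjusted p = 0.040). The higher *morchex* library lay close to the lowest WT library. At T0 the gene reached at most 0.10 TPM in *morchex* and 0.11 TPM in WT, so its difference was seen in heat-induced transcript. It was called in 7 of 12 other settings, and not without replicate 2 (-1.53) or 3 (-1.87) of WT or replicate 1 of *morchex* (-1.42). The 250 bases upstream of its start (TAIR10.1, chr3:2955906-2956155, plus strand, RefSeq genome) are shown for their heat shock elements, with GAANNTTC and TTCNNGAA in capitals at 61 and 148 bases before the start.
APX2: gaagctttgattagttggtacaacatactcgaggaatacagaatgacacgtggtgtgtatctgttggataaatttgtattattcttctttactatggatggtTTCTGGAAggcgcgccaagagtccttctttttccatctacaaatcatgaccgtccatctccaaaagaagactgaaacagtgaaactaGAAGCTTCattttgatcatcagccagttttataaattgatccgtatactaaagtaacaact
Each motif reads the same on both strands. At least 1 match was held by 16.0% of the 26711 promoters of this length and at least 2 by 1.71%. Of the promoters of 16 small heat shock protein genes, 7 held at least 1 and 2 held at least 2.

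Small heat shock proteins, chaperones that hold unfolded proteins, had a median log2 fold change of -0.85 over 15 tested genes. None was called or passed the adjusted p in edgeR, 12 had an unadjusted p under 0.05 and a negative fold change, and for none did the *morchex* and WT libraries separate. With DESeq2 3 passed the adjusted p, of which 1 was also past the fold change. HSP26.5 (AT1G52560) had 32.3 and 89.8 TPM in *morchex*, against 67.2, 304 and 235 TPM in WT (-1.86, adjusted p = 0.067). HSP17.6A had 2656 and 4186 TPM in *morchex*, against 3738, 5976 and 6281 TPM in WT (-0.79, adjusted p = 0.072). In both genes replicate 2 of *morchex* lay above replicate 1 of WT. At T0 the median of the list was 0.30 and at T48 0.27. The calls turned on the replicate left out, with 9 of the genes called lower without replicate 1 of WT (median -1.08), 6 without replicate 2 of *morchex* (median -1.41) and 0 without any of the other 3 libraries (medians -0.75 to -0.52).

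The replicates of each genotype differed from each other at these genes. The 16 genes summed to 18971 and 31925 TPM in *morchex*, against 25980.1, 49169.6 and 48746 TPM in WT. At T0 they summed to 62.3 to 139 TPM in *morchex* and 60.7 to 85.5 TPM in WT. Replicate 1 was the lowest in each genotype, and replicate 2 of *morchex* lay above replicate 1 of WT. Whether this spread between replicates bears on the other differences at T30 was not tested.

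The larger chaperones of the HSP70, HSP90 and HSP101 families and their partners had a median of -0.41 over 19 genes, 0 called by edgeR or DESeq2 and 4 negative at an unadjusted p under 0.05. HSA32 had 103 and 202 TPM in *morchex*, against 143, 372 and 312 TPM in WT (-0.99, adjusted p = 0.13), and HSP70-5 had 157 and 594 TPM in *morchex*, against 305, 1184 and 1132 TPM in WT (-1.33, adjusted p = 0.16). The 17 tested heat shock factors had a median of -0.09 and 0 called by either tool (3 negative at an unadjusted p under 0.05), with HSFB1 at 44.0 and 79.9 TPM in *morchex*, against 61.4, 143 and 142 TPM in WT (-1.02, adjusted p = 0.14). Of the other 7 heat-response genes, 5 had a negative fold change at an unadjusted p under 0.05. Among these 5 were APX2, which was called, DREB2A (-0.73) and MBF1C (-0.50). The 1 positive member (1.69) had both *morchex* libraries above all WT libraries and did not reach that threshold. Without replicate 1 of WT, 4 of the larger chaperones, HSFB1 and the APX2, DREB2A and DREB2B genes were called lower, and without replicate 2 of *morchex* HSP70-5 and APX2 were.

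**Figure D4:**
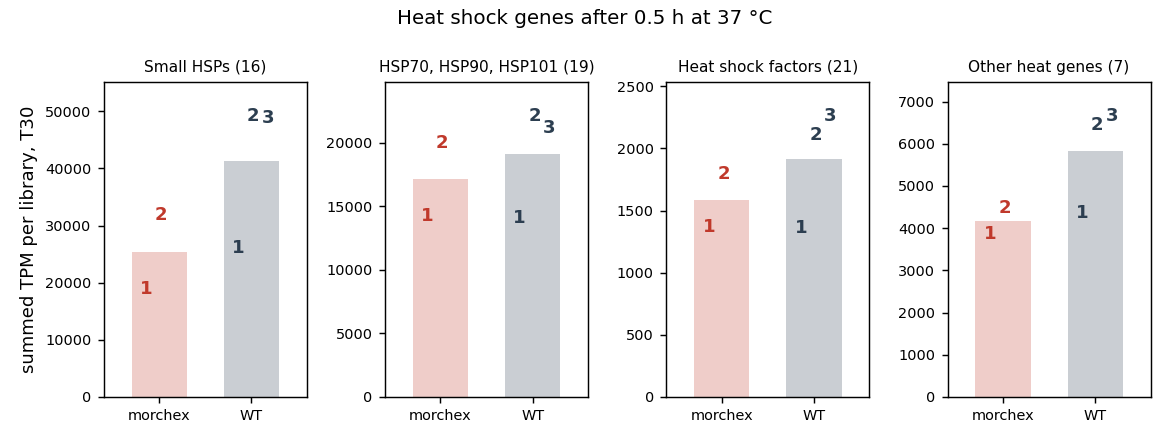
Summed TPM at T30 (vertical axes, from 0) of 4 lists of heat genes, with each library drawn as its replicate number, *morchex* left and WT right, and bars for group means. Replicate 1 is lowest in both genotypes in each panel, and for small heat shock proteins *morchex* lies at 18971 and 31925 TPM and WT at 25980.1 to 49169.6 TPM.

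ONSEN, a retrotransposon whose transcription is induced by heat, was read through 8 annotated copies, which share near-identical sequence. Of these 2 had enough counts to be tested. AT5G13205 had 3.04 and 4.26 TPM in *morchex*, against 1.06, 1.69 and 3.74 TPM in WT (0.67, adjusted p = 0.49). AT1G11265 had 0.13 and 0.50 TPM in *morchex*, against 0.33, 0.80 and 0.65 TPM in WT (-0.94, adjusted p = 0.57). The groups overlapped at both copies.

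Of the co-repressors, the TOPLESS family, which silences hormone and immune targets, had a median of 0.60 over 5 genes. TPR1 passed the adjusted p but not the fold change, with 4.38 and 4.49 TPM in *morchex*, against 2.92, 2.57 and 2.19 TPM in WT (0.67, adjusted p = 0.038). TPR2 had 6.16 and 6.10 TPM in *morchex*, against 4.15, 3.59 and 3.06 TPM in WT (0.64, adjusted p = 0.055). Before heat the median of the family was 0.10. The 6 LEUNIG and SEUSS genes had a median of 0.14, and SEU had 10.6 and 10.6 TPM in *morchex*, against 8.56, 7.65 and 8.73 TPM in WT (0.23, adjusted p = 0.19).

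Genes of DNA methylation and silencing were measured for 31 of 33 members, with 0 called by edgeR or DESeq2, 7 positive at an unadjusted p under 0.05 and a median of 0.13. ROS1, a demethylase whose transcription depends on methylation of its own promoter, passed the adjusted p without the fold change, with 8.32 and 6.92 TPM in *morchex*, against 4.23, 3.17 and 3.44 TPM in WT (0.95, adjusted p = 0.0085). NRPE1, the largest subunit of Pol V, had 1.09 and 0.99 TPM in *morchex*, against 0.77, 0.55 and 0.64 TPM in WT (0.54, adjusted p = 0.084). ROS1 differed by 0.67 at T0 and 0.98 at T48, and at T30 it was also past the fold change without replicate 1 of WT (1.06) or replicate 2 of *morchex* (1.03).

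Salicylic acid immunity, a defence pathway against pathogens, had a median of 0.38 over 16 genes, with 0 called by edgeR, 1 by DESeq2 and 4 positive at an unadjusted p under 0.05. EDS1, a hub of receptor signalling, had 5.72 and 4.53 TPM in *morchex*, against 3.08, 2.21 and 1.78 TPM in WT (0.99, adjusted p = 0.070), and at T0 its log2 fold change was -0.02. SARD1, a transcription factor of salicylic acid synthesis, had 3.13 and 1.15 TPM in *morchex*, against 0.26, 0.43 and 0.92 TPM in WT (1.90, adjusted p = 0.086). EDS1 was called without replicate 1 of WT (1.24) and SARD1 without replicate 2 of *morchex* (2.45). The groups did not overlap at either gene, but the marker PR1, named after its values were seen, with 5.00 and 2.69 TPM in *morchex* and 2.32, 3.26 and 7.47 TPM in WT, overlapped.

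The 12 JAZ repressors of jasmonate signalling had a median of 0.08, 0 called by edgeR or DESeq2 and 0 at an unadjusted p under 0.05. Their levels varied widely within each genotype. JAZ7 had 12.6 and 53.8 TPM in *morchex*, against 2.57, 0.36 and 35.2 TPM in WT (1.33, adjusted p = 0.42), and JAZ9, named after its values were seen, had 213 and 385 TPM in *morchex*, against 218, 67.8 and 621 TPM in WT. Replicate 2 of *morchex* and replicate 3 of WT were the high libraries at both genes, and without replicate 3 of WT the median of the list was 1.06 and JAZ7 was called higher (4.25). The 16 clock genes had a median of -0.09, and CCA1, a morning gene, had 1.53 and 1.90 TPM in *morchex*, against 2.16, 3.22 and 3.48 TPM in WT (-0.80, adjusted p = 0.093).

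The floral MADS genes were tested for 5 of 13 members, with a median of 0.65, 0 called by edgeR or DESeq2 and 2 positive at an unadjusted p under 0.05. SEP1 had 4.95 and 2.94 TPM in *morchex*, against 2.56, 0.75 and 2.49 TPM in WT (0.87, adjusted p = 0.16), and FUL had 3.42 and 3.49 TPM in *morchex*, against 1.95, 1.70 and 2.46 TPM in WT (0.65, adjusted p = 0.17). Genes of the meristem and organ boundaries had a median of 0.21 (7 of 15 tested), mitotic cyclins and B-type kinases 0.01 (9 of 10 tested) and green tissue markers 0.15 (6 tested). In edgeR 0 were called in each list, and 3, 0 and 1 were positive at an unadjusted p under 0.05. DESeq2 called 0 of the meristem and green tissue genes. It gave no adjusted p for the 9 mitotic genes, so it could not call any of them.

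**Figure D5:**
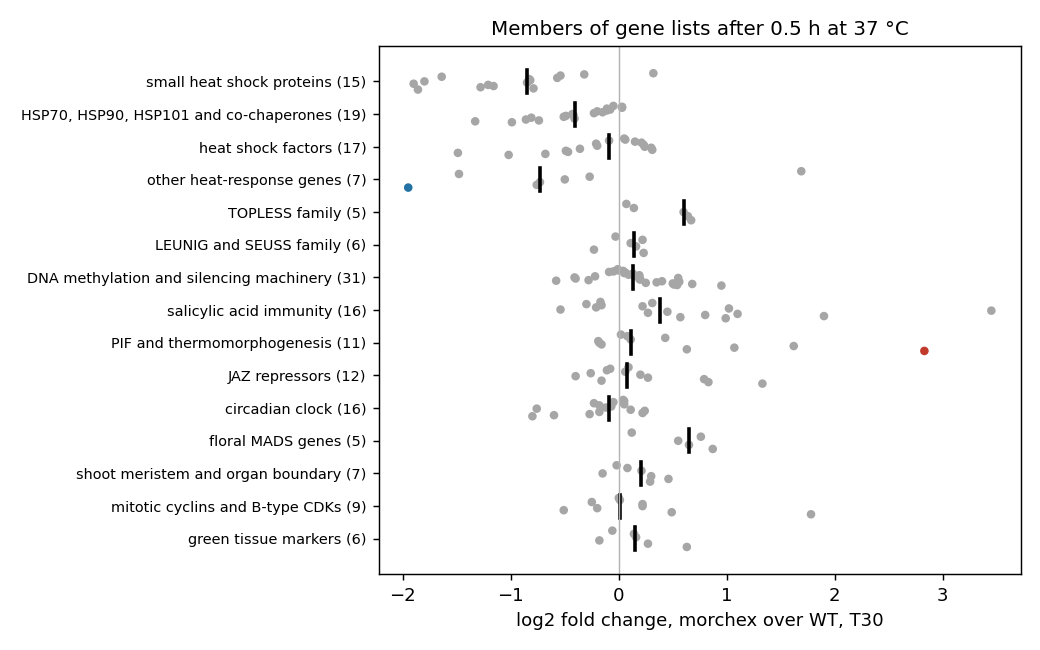
Log2 fold change of *morchex* over WT at T30 (horizontal axis) for each tested member (points) of 15 gene lists, with the number tested in brackets and the median as a bar. IAA29 (called higher) and APX2 (called lower) are coloured, and the medians run from -0.85 for small heat shock proteins to 0.65 for floral MADS genes.

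The gene lists that the study drew from MORC7 and Pol V binding were set beside the calls. Of 340 tested genes near MORC7 sites in active chromatin (MORC7A), 0 were called by edgeR in either direction. DESeq2 called 1 higher and 2 lower. At an unadjusted p under 0.05 in edgeR, 50 of the 340 were positive and 23 negative, and the median was 0.09. Over all 18827 genes tested, 9.9% were positive and 10.9% negative at this threshold, and the median was 0.01. Whether the MORC7A list differs from all genes was not tested. Of 982 genes near sites common to MORC7 and Pol V, edgeR called 6 higher (0.611%) and 1 lower (0.102%). Over all genes tested these shares were 0.467% and 0.122%. The 6 were PUM9, SDC, AT2G40420, CHR38, AT4G04223 and MRU1, and the lower gene was AT3G28220. The median of these 982 genes was 0.04, and DESeq2 called 6 higher and 3 lower. Of 628 genes near sites with Pol V alone, edgeR called SUS1 higher (0.159%) and 0 lower. DESeq2 called 5 of them higher and 0 lower, and their median was 0.04. The copies of these lists used here may not be whole.

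Peaks of the co-repressors TPL and LUG, mapped by ChIP-seq in tagged plants for which the labels name no heat treatment, were read in promoters from 1000 bases upstream to 200 bases downstream of the start. For TPL, the promoters of 19 of 86 genes called higher held a peak summit in *morchex* (22.1%, 95% interval 13.9 to 32.3%) and 9 in WT (10.5%), against 27.3% in *morchex* and 20.1% in WT over all genes tested. Among the 45 genes also called at T0 it was 13.3% in *morchex* and 2.22% in WT, and among the other 41 placed genes it was 31.7% in *morchex* and 19.5% in WT. For genes called lower it was 9 of 22 in *morchex* (40.9%) and 7 of 22 in WT (31.8%). LUG summits stood at 14% of the genes called higher in *morchex* and 3.49% in WT, against 10.7% in *morchex* and 5.09% in WT over all genes. With 1 list of each kind there was no replicate check.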

How the data were processed

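RNA-seq libraries of *morchex* and WT at T30 were compared, with those at T0 and T48 in the same fit (16 libraries in 6 groups), and peak lists of TPL and LUG ChIP-seq were used for promoters. Per the methods, Bowtie2 v2.1.0 placed the reads on TAIR10 and RSEM summed them, and the authors' deposited tables give an expected count and a TPM for each gene. The deposited peak lists, called by the authors with MACS2 v2.1.1, give the summit and −log10 p and q values, of which the summits were used. Expected counts were rounded, filtered by edgeR's filter by group, which kept 18827 of 33602 genes, scaled by TMM (0.752 to 0.876 at T30) and tested with edgeR 4.0.16 by quasi-likelihood in R 4.3.3, with Benjamini-Hochberg adjustment over all tested genes. The RefSeq annotation of TAIR10.1 placed 32835 identifiers. Intervals cover counting error only.

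The genes named are the 6 MORC genes, the 14 called higher and 14 called lower with the smallest adjusted p whose libraries do not overlap, each called list member and up to 4 members of each list with the smallest unadjusted p. Others were named after their values were seen. The members and lists were chosen with earlier results of these data known. Alternatives were DESeq2 1.42.0, library sizes without TMM, no filter on low counts, the T30 libraries alone, the replicate number as a block, counts thinned to the smallest library, removal of the trend with gene length, other thresholds and each T30 library left out. The pipeline was tested on simulated data. ATAC-seq libraries were not used here.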

Additional observations from a re-analysis of the deposited data

Results flagged for a closer look

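The interaction of genotype and heat was called for MORC4, where the effects of *morchex* at T30 and T0 differed by -2.26 on the log2 scale (edgeR, adjusted p = 9.1e-05). The log2 fold change was -0.36 at T30 and 1.90 at T0, and all 3 T0 libraries of *morchex* lay above those of WT, while both T30 libraries of *morchex* lay below those of WT. MORC4 is itself mutated in *morchex*.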

How the results depend on the processing

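Against 88 genes called higher, 70 were called with DESeq2 (34 of them among the 88), 123 without TMM, 100 without the filter, 72 after thinning and 68 after removing the trend with gene length. The number was 31 with the T30 libraries alone, 36 to 112 with 1 library left out, 352 at an unadjusted p and 173 without the fold limit. For the 23 called lower it was 38 with DESeq2, 6 with the T30 libraries alone, 15 after thinning, 12 without the length trend, 5 to 126 with 1 library left out, 179 at an unadjusted p and 121 without the fold limit. The interaction gave 3 higher and 4 lower genes with DESeq2, 1 higher without the filter, 0 to 1 higher with 1 library left out, and 251 higher and 135 lower at an unadjusted p. With the replicate number as a block 94 genes were higher, 42 lower and 11 list members called (4 small heat shock proteins, AT1G52560, HSP22.0, HSP21 and HSP15.7, and HSFA7B besides the 6). Same-numbered libraries at T30 correlated at 0.14 and -0.01 in their deviations, a weak check with 2 pairs, and as no label pairs them the numbers were not taken as pairs. Of the gene lists, 6 members were called, 3 with the T30 libraries alone and 4 to 24 with 1 library left out. The share of the genes called higher near a centre was 19.8% within 1 Mb and 70.9% within 5 Mb. Over all genes tested these shares were 0.873% within 1 Mb and 24.6% within 5 Mb. Without TMM the median of all genes moved from 0.01 to 0.11. Uncalled genes changed sign as follows: TPR4 to -0.07, SLK1 and GI to -0.01 without the length trend, and, with 1 library left out, JAZ7 between -0.13 (without replicate 2 of *morchex*) and 4.25 (without replicate 3 of WT, adjusted p = 0.027), JAZ8 between -1.25 and 3.25 (the same libraries), JAZ12 between -0.26 and 0.03 (without replicate 3 of WT) and BEL1 between -0.03 (without replicate 1 of *morchex*) and 0.42. In all, 98 named genes gave 1183 values, of which 1082 kept direction and call, 64 lost the call, 30 gained it and 7 changed sign. Where not shown by fewer samples, the cause was not tested. Genes with 1 to 3 counts in WT are limited by depth.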
